A study of Homo sapiens with 27 samples.

Results

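H1 human embryonic stem cells, an established line, were differentiated for 32 days toward photoreceptor progenitors on different recombinant laminin coatings, and the 3 LN323 libraries of day 32 were compared here with the 3 LN521 libraries of day 32. These 6 libraries were chosen by their column names, out of 27 bulk RNA-seq libraries that cover LN323, LN521, and LN523 at days 2, 22, and 32 with 3 replicates of each. The sample titles name slightly earlier days than the column names, and the days of the column names are used here. The cells of days 22 and 32 received neural induction medium with SB431542 and CKI-7 from day 2. They then received photoreceptor medium with BDNF, CNTF, retinoic acid, and DAPT until they were collected. The sample labels and the study's methods describe the coatings differently. The labels give LN323 as laminin 323 alone and LN521 as laminin 521 together with laminin 323, whereas the methods give LN323 as a mixture with LN521 and LN521 as a coating of its own. For LN523, whose libraries share the fit, the labels give a mixture with laminin 323 and the methods a mixture with LN521. Groups are therefore named only by their leading isoform. The replicate number equals the sequencing lane, and neither the labels nor the methods say that replicates came from separate cultures, so p-values measure only the spread between these libraries, which may be technical.

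Laminins are basement membrane proteins made of an α, a β, and a γ chain, and cells bind them mainly through integrins and dystroglycan. LN323 and LN521 share the β2 chain and differ in the α chain (α3 or α5) and the γ chain (γ3 or γ1). In the developing eye the optic vesicle gives rise to the neural retina and the pigment epithelium, the overlying surface ectoderm forms the lens, and the mesenchyme around the eye comes largely from the neural crest. Cultures of stem cells that make retina can hold cells of each of these kinds.

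The promoters of 4 of the 5 called crystallin genes, which were higher on LN323, and of the tyrosinase gene, the called gene of the pigment list, which was higher on LN521, are shown as examples of a lens and a pigment gene group on opposite sides of the comparison. Sequences are the 250 bases before the RefSeq transcript start in GRCh38.p14, 5′ to 3′ on the gene's strand. In the crystallin promoters capitals mark TGCTGA, the half-site of the MAF recognition element, which MAF factors bind in lens genes. In the tyrosinase promoter capitals mark CATGTG, the core of the M-box, which MITF binds in pigment cell genes. Both motifs were searched on both strands, and their positions do not overlap. CRYBA4 lies at chr22:26621713-26621962 on the plus strand, and CRYBB1 at chr22:26618028-26618277 on the minus strand, so that the gene pair points in opposite directions from starts 3936 bases apart. CRYBA1 lies at chr17:29246609-29246858, CRYAA at chr21:43168758-43169007, and TYR at chr11:89177625-89177874, each on the plus strand.
CRYBA4: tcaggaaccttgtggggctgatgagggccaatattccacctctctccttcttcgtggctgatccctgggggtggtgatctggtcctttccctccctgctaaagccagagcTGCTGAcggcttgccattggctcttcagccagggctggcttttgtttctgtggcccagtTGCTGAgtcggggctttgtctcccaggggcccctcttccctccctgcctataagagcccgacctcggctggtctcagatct
CRYBB1: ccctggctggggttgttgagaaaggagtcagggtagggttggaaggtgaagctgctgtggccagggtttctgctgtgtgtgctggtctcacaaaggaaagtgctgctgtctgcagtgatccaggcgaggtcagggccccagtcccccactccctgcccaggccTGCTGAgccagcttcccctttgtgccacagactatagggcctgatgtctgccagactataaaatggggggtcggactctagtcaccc
CRYBA1: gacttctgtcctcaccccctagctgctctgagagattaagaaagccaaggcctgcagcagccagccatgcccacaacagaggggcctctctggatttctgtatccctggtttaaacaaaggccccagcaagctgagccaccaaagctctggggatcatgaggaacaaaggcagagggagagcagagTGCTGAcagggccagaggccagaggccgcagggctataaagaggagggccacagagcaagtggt
CRYAA: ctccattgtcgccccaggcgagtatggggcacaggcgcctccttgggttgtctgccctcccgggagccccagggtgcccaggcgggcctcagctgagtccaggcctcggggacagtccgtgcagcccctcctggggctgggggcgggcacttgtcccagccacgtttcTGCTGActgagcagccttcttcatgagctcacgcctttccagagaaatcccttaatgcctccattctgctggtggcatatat
TYR: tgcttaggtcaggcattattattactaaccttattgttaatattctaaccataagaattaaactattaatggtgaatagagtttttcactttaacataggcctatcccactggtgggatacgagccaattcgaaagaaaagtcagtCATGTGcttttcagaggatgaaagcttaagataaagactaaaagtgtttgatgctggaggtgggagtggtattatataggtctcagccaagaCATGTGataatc
TGCTGA or its reverse complement TCAGCA stood in 4923 of 35116 promoters of that length (14%) and in 11 of 21 promoters of genes in the lens list (52.4%). It began 140 and 81 bases before the start in CRYBA4, 87 in CRYBB1, 64 in CRYBA1, and 82 in CRYAA, on the strand of the gene in each. In CRYGS, the called crystallin whose promoter is not printed, it lay on the opposite strand, 206 bases before the start. CATGTG or CACATG stood in 3307 promoters (9.42%), in 9 of 28 promoters of the pigment list (32.1%), and 104 and 12 bases before the start of TYR. Over the 46 promoters found for genes called at day 32, which belong to 33 of the 46 called genes, the shares were 17.4% for TGCTGA and 13% for CATGTG. These are matches of letters in a window and do not show that a factor bound there.

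The 6 libraries held 32940453 to 40813402 counts each. LN521 replicate 1 stood apart from the other LN521 libraries, since the median chi-square per gene was 24.2 and 24.7 for the pairs that hold it and 9.81 to 14.7 for the other 4 pairs within LN323 or LN521. LN323 replicate 2 was the library with the highest level in its group for 27 of the 41 genes called higher on LN323. Counts of calls and list medians were therefore also computed without each of these libraries, and the plot of list medians shows both. The cells are labelled as photoreceptor progenitors, and the defining genes were present at uneven levels. CRX, the homeobox factor of photoreceptor precursors, stood at 8.00, 9.59, and 3.08 CPM (the counts-per-million unit, scaled by the TMM method) in LN323 replicates 1 to 3 and at 31.1, 13.2, and 8.77 CPM on LN521. NRL, which sets rod fate, did not exceed 3.52 CPM in any of the 6 libraries, and RCVRN, the photoreceptor calcium sensor recoverin, did not exceed 2.16 CPM.

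At day 32, 41 genes were higher on LN323 and 5 were higher on LN521 among 39377 genes tested (edgeR quasi-likelihood test with lane as a block, Benjamini-Hochberg adjusted p under 0.05). The 46 genes are 0.117% of those tested (0.104% higher on LN323, 0.0127% higher on LN521), and all 46 are protein coding. The genes higher on LN323 were led by lens crystallins and also held fibrillar collagens, matrix enzymes, and guidance and adhesion molecules. Their log2 fold changes ran from 0.91 to 4.30 with a median of 1.44, against -0.05 over all genes tested. Those higher on LN521 were OTX2, TYR, SERPINB2, ATP6V1B1, and LBX1. The difference had the same sign in all 3 lanes for 45 of the 46 genes (8.09% of all genes tested were higher on LN323 in all lanes, and 7.93% higher on LN521). All LN323 libraries lay above all LN521 libraries for 29 genes (3.15% of all genes tested do so, and 4.5% of those with a mean of at least 1 CPM) and below them for 2 (3.2% and 4.03%), and the groups overlapped for 15. At an unadjusted p under 0.05 there were 911 genes higher on LN323 (2.31%) and 851 higher on LN521 (2.16%). The adjusted calls were fragile. Without LN323 replicate 2 none of 38719 genes tested passed, with 533 and 418 at an unadjusted p under 0.05, and without LN521 replicate 1 2143 passed (1233 higher on LN323), among them 45 of the 46. All 46 kept their sign with any 1 of the 6 libraries left out, in fits that reuse libraries on which they were chosen. Without the lane block 14 of the 46 passed, which were CRYBA1, CRYBB1, CRYGS, CRYAA, BHMT, COL1A1, PRPH, DACT2, SULF1, PCOLCE, SOCS3, ADGRA2, ZFHX4, and TYR.

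**Figure D1:**
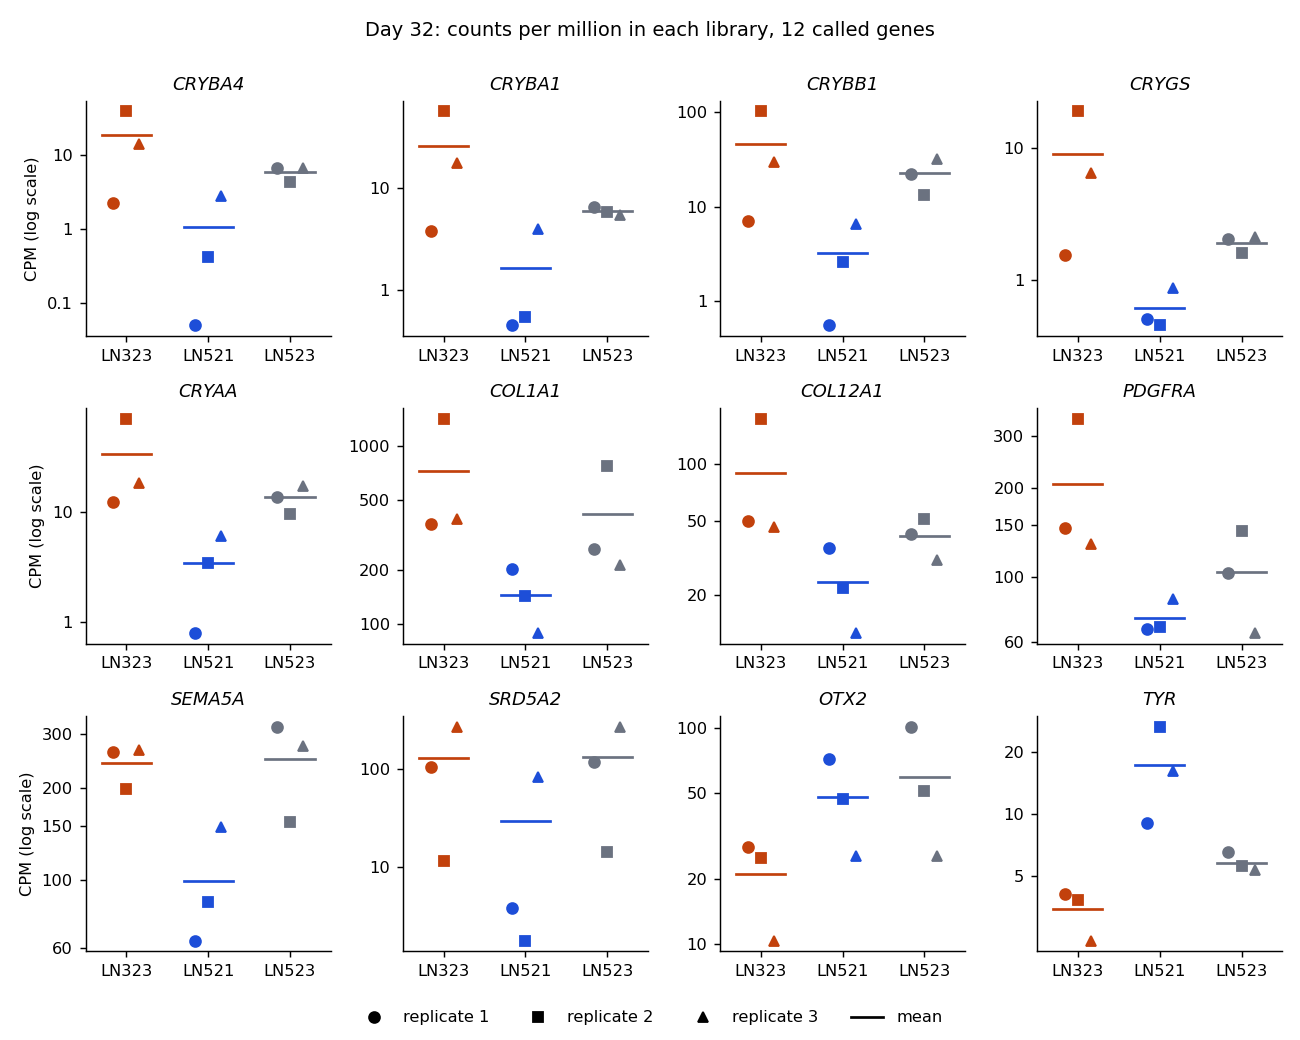
Level of 12 called genes in each day 32 library, in CPM on a log scale, with 1 panel a gene. Marker shapes give replicates 1 to 3 of LN323, LN521, and LN523, and lines give group means. The lens genes, COL1A1, and COL12A1 peak in LN323 replicate 2, whereas SRD5A2 is lowest in replicate 2 of each matrix.

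Lens genes showed the largest differences. Crystallins are the structural proteins that fill lens fibre cells, and 5 of the 22 lens genes tested were called higher on LN323 and none higher on LN521. CRYAA, the α-crystallin that also acts as a chaperone, stood at 12.2, 69.6, and 18.3 CPM on LN323 and at 0.804, 3.45, and 6.12 CPM on LN521. All 3 LN323 libraries lay above all 3 LN521 libraries, by a log2 fold change of 3.28 (9.71-fold, SE 0.51, edgeR adjusted p = 0.00485). CRYBB1, a β-crystallin, stood at 6.97, 102, and 29.9 CPM on LN323 against 0.553, 2.58, and 6.46 CPM on LN521. Here too the groups did not overlap (log2 fold change 3.80, SE 0.60, edgeR adjusted p = 0.00642). CRYGS, a γ-crystallin, was at 1.54, 19.0, and 6.45 CPM on LN323 and did not exceed 0.866 CPM on LN521 (log2 fold change 3.55, SE 0.62, edgeR adjusted p = 0.0138). CRYBA1 and CRYBA4, further β-crystallins, differed by 3.88 and 4.30 on the log2 scale (edgeR adjusted p = 0.0172 and 0.0226). For these last 2, LN323 replicate 1 lay below LN521 replicate 3, at 3.77 against 3.98 CPM for CRYBA1 and at 2.28 against 2.77 CPM for CRYBA4. In each of the 5 genes the order was the same within a matrix on LN323, with replicate 2 highest and replicate 1 lowest. BHMT, which makes methionine from betaine and is on no list here, followed that order as well, with 9.03, 100, and 38.1 CPM on LN323 against 1.06, 3.50, and 10.1 CPM on LN521 (log2 fold change 3.29, SE 0.54, edgeR adjusted p = 0.00773).

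The lens list as a whole had a median log2 fold change of 2.18 with 19 of 22 members above 0, against -0.05 over all genes tested. A further 9 of its members were higher on LN323 at an unadjusted p under 0.05, which makes 14 in all and none in the other direction. CRYAB, an α-crystallin made in many tissues, was the exception among the abundant members, with 54.8, 40.5, and 21.4 CPM on LN323 and 1.11, 10.3, and 44.6 CPM on LN521 (log2 fold change 1.25, SE 0.75, edgeR adjusted p = 1). The levels of all lens genes summed to 122, 439, and 204 CPM on LN323 and to 13.7, 33.3, and 111 CPM on LN521, with no overlap between the groups. Without LN521 replicate 1 the median was 2.13 with 13 members called, and without LN323 replicate 2 it was 1.53 with none called and 10 at an unadjusted p under 0.05. In bulk libraries, a larger number of lens-like cells and more lens RNA in each cell cannot be told apart. CRYAA has a near-identical copy in the annotation (99.9% over its length), which took 10 counts in LN323 replicate 2 and 2 in LN521 replicate 3 while CRYAA took 32 to 2872 in each library. CRYBB1 is overlapped over 11.6% of its exon length by a gene on the opposite strand, and CRYGS over 14.9% by one on the same strand.

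Collagens and other matrix genes formed the next group. COL1A1, a chain of type I collagen, stood at 362, 1427, and 388 CPM on LN323 and at 204, 143, and 88.5 CPM on LN521, with no overlap (log2 fold change 2.02, SE 0.29, edgeR adjusted p = 0.00289). Its partner chain COL1A2 differed less, with 2362, 5666, and 2154 CPM against 1578, 2298, and 1146 CPM, so that the highest LN521 library lay above the lowest LN323 library (log2 fold change 0.93, SE 0.17, edgeR adjusted p = 0.0166). COL12A1, a collagen that binds to type I fibrils, was at 49.9, 175, and 46.5 CPM against 35.9, 21.9, and 12.6 CPM (log2 fold change 1.81, SE 0.32, edgeR adjusted p = 0.0133). All of these were highest in LN323 replicate 2. COL9A3, a chain of the collagen that coats type II fibrils in cartilage and vitreous, had another pattern, with 261, 201, and 141 CPM on LN323 and 75.2, 42.2, and 118 CPM on LN521 (log2 fold change 1.39, SE 0.27, edgeR adjusted p = 0.0312). Of the 24 chains in the collagen list, which leaves out type IV and the chains counted with mesenchyme, COL12A1 and COL9A3 were called, 21 had a log2 fold change above 0, and the median was 0.56. COL3A1 stood at 1121, 8623, and 3578 CPM on LN323 and at 1793, 930, and 920 CPM on LN521 and did not pass (log2 fold change 1.19, SE 0.48, edgeR adjusted p = 0.872).

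Other called genes that act on the matrix were taken from the called set after their values were seen, and no list of such genes was counted. SULF1, which trims sulfate groups from heparan sulfate, was at 144, 433, and 147 CPM on LN323 and at 57.9, 71.6, and 68.1 CPM on LN521, and the groups did not overlap (log2 fold change 1.66, SE 0.23, edgeR adjusted p = 0.0022). The gelatinase gene MMP2 differed by 1.59 (SE 0.24, edgeR adjusted p = 0.00328) and PCOLCE, an enhancer of procollagen processing, by 1.51 (SE 0.26, edgeR adjusted p = 0.0102). The metalloproteases ADAM19 and ADAMTS9 differed by 1.17 and 1.16. In all 4 every LN323 library lay above every LN521 library. PCOLCE is overlapped over 16.8% of its exon length by a gene on the opposite strand, and the strand setting of the counting is not given in the sources used here, so reads of such pairs cannot be told apart.

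The list of basement membrane and matrix genes had no called member, with 17 of 37 higher and 2 lower on LN323 at an unadjusted p under 0.05, a median of 0.57, and 2 higher and 1 lower after adjustment in DESeq2. FN1, fibronectin, stood at 3602, 3053, and 2326 CPM on LN323 and at 903, 2179, and 2050 CPM on LN521, a difference of 0.94 (SE 0.25) that did not pass (edgeR adjusted p = 0.237). TNC, tenascin C, stood at 182, 160, and 132 CPM against 75.8, 102, and 34.4 CPM (log2 fold change 1.24, SE 0.26, edgeR adjusted p = 0.054). In both genes the groups did not overlap.

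PDGFRA, the PDGF receptor of mesenchyme and of glial precursors, stood at 147, 344, and 129 CPM on LN323 and at 66.4, 67.3, and 84.0 CPM on LN521 (log2 fold change 1.34, SE 0.25, edgeR adjusted p = 0.0235). No LN521 library reached the lowest LN323 library. PDGFRA, COL1A1, and COL1A2 were the 3 called members of the mesenchyme and muscle list, which had 26 of 32 members above 0 and a median of 0.76. Its summed level was 6153, 21242, and 8547 CPM on LN323 and 5293, 5154, and 3843 CPM on LN521. The median was 1.03 without LN521 replicate 1, where 17 members passed, and 0.65 without LN323 replicate 2, where none passed. Whether more cells of this kind were present was not tested. The neural crest list had no called member, with 7 of 22 higher and 2 lower at an unadjusted p under 0.05, a median of 0.36, and 1 higher and 0 lower after adjustment in DESeq2. PDGFRA shares 16.1% of its exon length with another gene on the same strand.

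**Figure D2:**
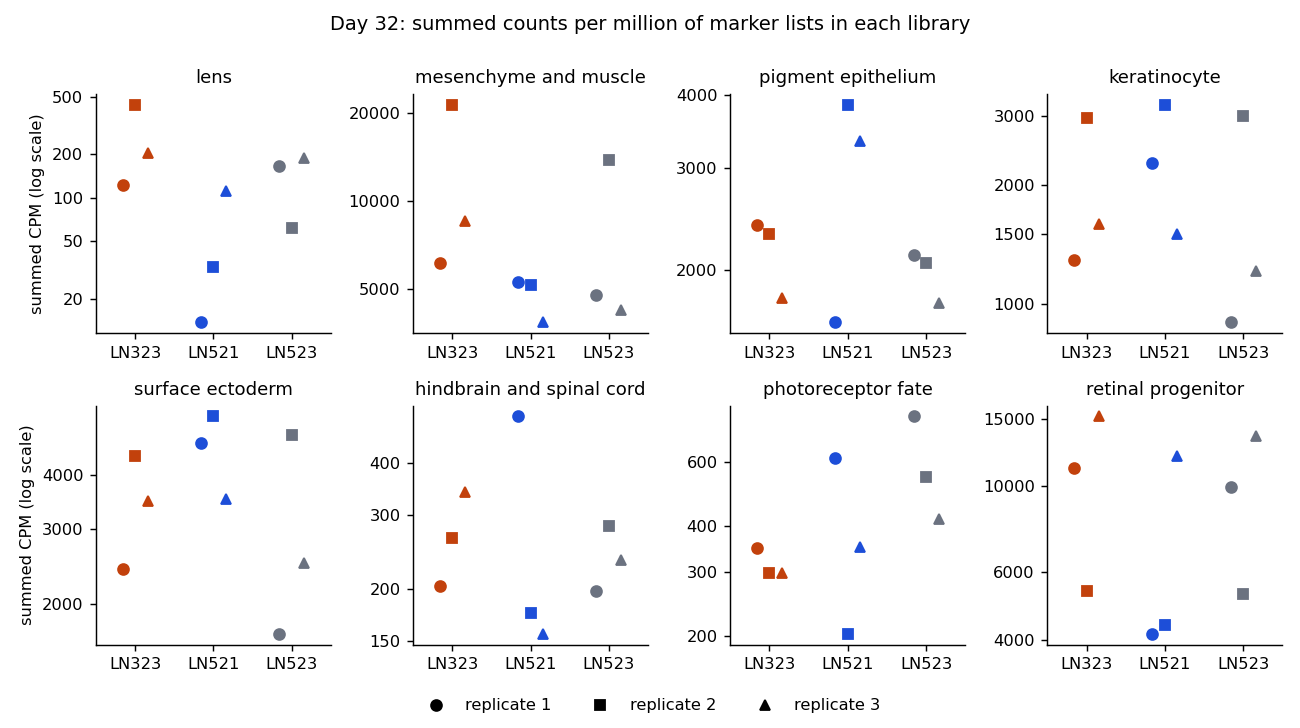
Summed level of 8 marker lists in each day 32 library, in CPM on a log scale, with 1 panel a list. Marker shapes give replicates 1 to 3 of LN323, LN521, and LN523. The lens sums of LN323 (122 to 439) lie above those of LN521 (13.7 to 111), and the mesenchyme sums of LN323 (6153 to 21242) above those of LN521 (3843 to 5293), whereas the keratinocyte sums overlap.

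CDH11, CDH20, TENM4, SEMA5A, and DCHS1 were called genes of cell adhesion and guidance. CDH11, a cadherin of mesenchyme, stood at 425, 523, and 508 CPM on LN323 and at 225, 173, and 282 CPM on LN521, with no overlap (log2 fold change 1.12, SE 0.18, edgeR adjusted p = 0.00735). CDH20, a cadherin close to those of neural tissue, differed by 1.01 (SE 0.19, edgeR adjusted p = 0.0312), but its groups overlapped, since LN323 replicate 2 (63.8 CPM) lay below LN521 replicate 3 (129 CPM). These were the 2 called members among 23 cadherins and protocadherins, of which 16 were above 0, with a median of 0.44. TENM4, a teneurin that joins neurons, stood at 184, 171, and 224 CPM against 59.2, 53.1, and 113 CPM (log2 fold change 1.44, SE 0.19, edgeR adjusted p = 0.0022). SEMA5A, a semaphorin, stood at 261, 198, and 266 CPM against 63.6, 84.8, and 149 CPM (log2 fold change 1.32, SE 0.23, edgeR adjusted p = 0.0133). In both genes every LN323 library lay above every LN521 library. SEMA5A was the 1 called member of 41 axon guidance genes, whose median was 0.25, with 15 higher and 3 lower at an unadjusted p under 0.05. SLIT3, a repellent ligand, and SEMA6A stood just outside the threshold, with differences of 1.32 and 0.92 (edgeR adjusted p = 0.0506 for each). DCHS1, a large protocadherin, was called at a difference of 0.91.

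Among signalling genes, SOCS3, the feedback inhibitor of cytokine receptors that act through STAT3, stood at 181, 185, and 115 CPM on LN323 and at 47.3, 67.5, and 55.9 CPM on LN521 (log2 fold change 1.5, SE 0.21, edgeR adjusted p = 0.0022). All LN323 libraries lay above all LN521 libraries, as also at days 22 and 2. DACT1 and DACT2, which bind Dishevelled in the WNT pathway, differed by 1.31 (SE 0.25, edgeR adjusted p = 0.0312) and 1.71 (SE 0.25, edgeR adjusted p = 0.00328). DACT2 was at 50.6, 75.4, and 55.5 CPM on LN323 and did not exceed 21.8 CPM on LN521. LRP1, an endocytic receptor of the LDL receptor family, was at 342, 383, and 266 CPM against 160, 166, and 142 CPM (log2 fold change 1.07, SE 0.17, edgeR adjusted p = 0.00735), and ADGRA2, a coreceptor for WNT7 ligands, differed by 1.29 (SE 0.21, edgeR adjusted p = 0.00773). The groups did not overlap in DACT1, DACT2, LRP1, or ADGRA2, and ADGRA2 is overlapped over 23% of its exon length by a gene on the opposite strand. The WNT list, which holds neither DACT gene nor LRP1, had no called member among 51, a median of 0.20, 8 higher and 2 lower at an unadjusted p under 0.05, and 1 higher and 0 lower after adjustment in DESeq2. Its member with the lowest p was DKK2, a secreted WNT modulator, at 6.00, 62.5, and 17.4 CPM on LN323 and 5.38, 5.93, and 0.519 CPM on LN521 (log2 fold change 2.44, SE 0.68, edgeR adjusted p = 0.289). The FGF and ERK feedback list was on the other side, with a median of -0.26 and with 8 of 37 members higher on LN521 and 2 higher on LN323 at an unadjusted p under 0.05. DUSP6, a phosphatase that ERK induces, stood at 8.85, 7.48, and 11.4 CPM on LN323 and at 21.3, 34.0, and 15.1 CPM on LN521 and did not pass (log2 fold change -1.44, SE 0.40, edgeR adjusted p = 0.284).

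The cells' own laminin genes and laminin receptors showed no called member. LAMB2, the β2 chain that both coatings share, stood at 810, 568, and 610 CPM on LN323 and at 303, 484, and 618 CPM on LN521 (log2 fold change 0.49, SE 0.23, edgeR adjusted p = 1). LAMA5, the α chain of LN521, differed by 0.46 (SE 0.18), and LAMA3, the α chain of LN323, by -0.43 (SE 0.34). LAMC3, the γ chain of LN323, stood between 5.48 and 7.97 CPM in all 6 libraries, a difference of 0.02 (SE 0.34), and LAMC1 differed by 0.31 (SE 0.17). LAMA2, the α chain of muscle and nerve basement membranes, stood at 22.2, 62.3, and 26.6 CPM on LN323 and at 20.8, 17.4, and 10.1 CPM on LN521, without overlap (log2 fold change 1.08, SE 0.30, edgeR adjusted p = 0.31), and LAMA4, an α chain of vessel walls, differed by 1.18 (SE 0.37, edgeR adjusted p = 0.456) with overlapping groups. Over the 12 chains, 5 were higher and 1 lower on LN323 at an unadjusted p under 0.05, and 0 higher and 0 lower after adjustment in DESeq2. Of the 16 receptors, ITGB1, the β1 integrin subunit, stood at 559, 656, and 562 CPM against 360, 515, and 563 CPM (log2 fold change 0.33, SE 0.17). SDC4, syndecan 4, was the single receptor past an unadjusted p of 0.05, at 78.2, 91.7, and 62.0 CPM on LN323 and 100, 194, and 93.1 CPM on LN521 (log2 fold change -0.67, SE 0.19, edgeR adjusted p = 0.338). The receptors had a median of -0.05, the same as all genes tested, and 0 higher and 0 lower after adjustment in DESeq2. ITGA1, a collagen-binding integrin in the focal adhesion list, had no overlap between groups, with 28.1, 23.7, and 15.2 CPM against 8.39, 5.57, and 10.2 CPM, and stood just outside the threshold (log2 fold change 1.54, SE 0.32, edgeR adjusted p = 0.0557).

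**Figure D3:**
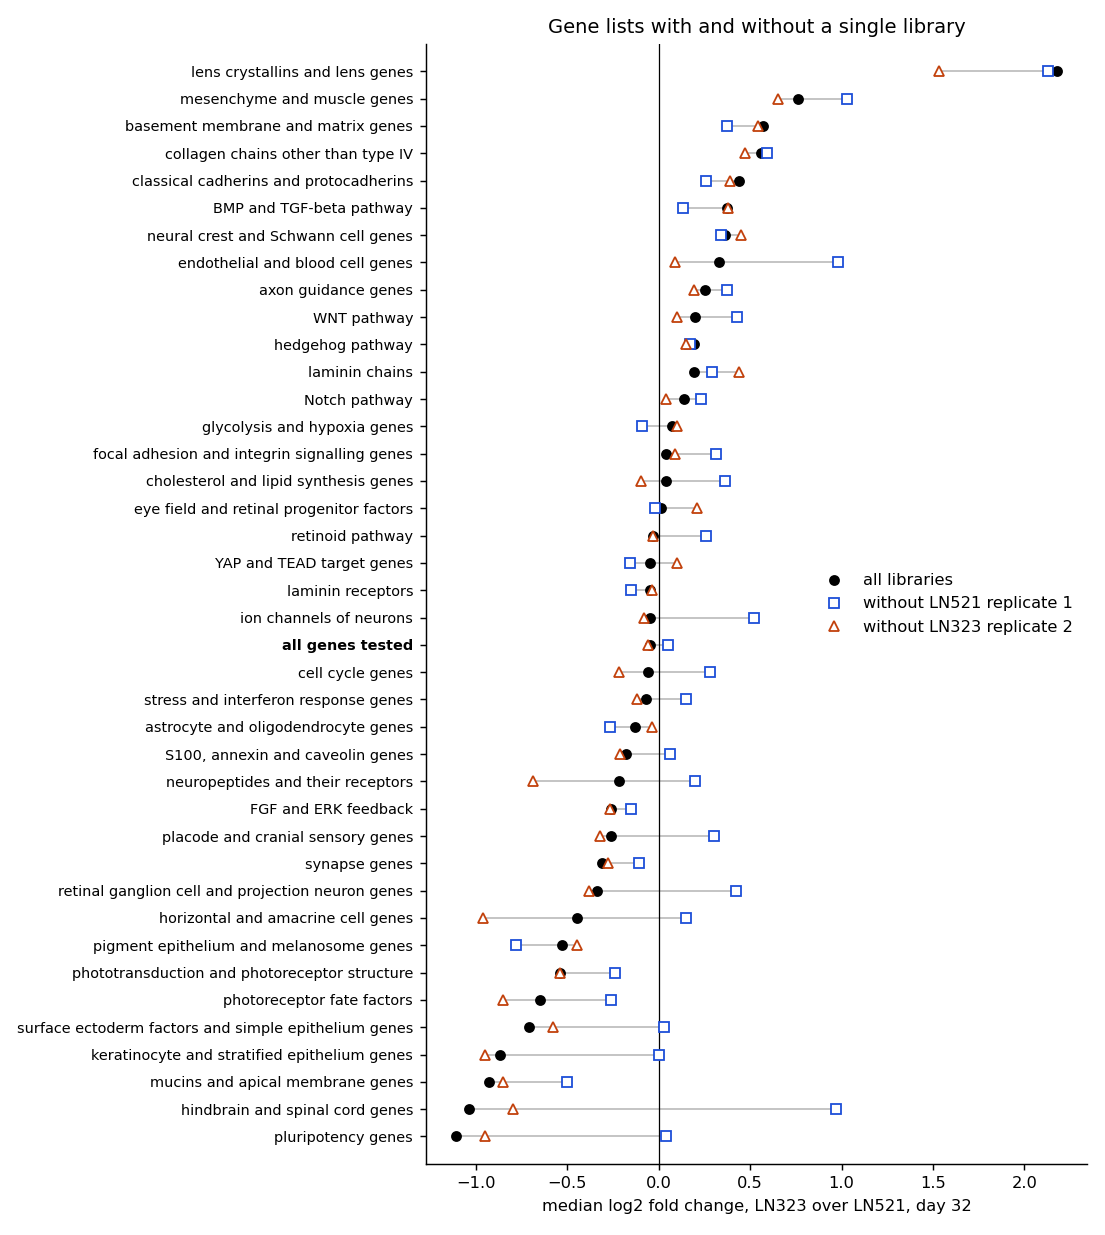
Median log2 fold change of LN323 over LN521 at day 32 for 39 gene lists and for all genes tested. Filled circles use all libraries, squares leave out LN521 replicate 1, and triangles leave out LN323 replicate 2. The lens list lies highest under each (2.18, 2.13, and 1.53), and the hindbrain list moves from -1.04 to 0.97 without LN521 replicate 1.

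A further set of genes higher on LN323 was highest in replicates 1 and 3 rather than replicate 2. SRD5A2, a steroid 5α-reductase, stood at 105, 11.5, and 268 CPM on LN323 and at 3.87, 1.80, and 83.1 CPM on LN521. LN323 was higher in each lane although the groups overlapped, because replicate 2 was lowest on both matrices (log2 fold change 2.82, SE 0.39, edgeR adjusted p = 0.0022). KCTD16, a partner of GABA-B receptors, was at 179, 43.5, and 100 CPM against 17.0, 5.63, and 70.3 CPM (log2 fold change 2.11, SE 0.41, edgeR adjusted p = 0.0312). VIPR2, a receptor of the peptides VIP and PACAP, was at 13.7, 3.87, and 38.7 CPM against 2.19, 1.80, and 15.8 CPM (log2 fold change 1.67, SE 0.32, edgeR adjusted p = 0.0312). A gene on the opposite strand overlaps 39.4% of VIPR2. Without the lane block SRD5A2 and KCTD16 did not pass (edgeR adjusted p = 0.826 and 0.585).

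TBX5, which marks the dorsal retina, stood at 69.8, 66.6, and 95.9 CPM on LN323 and at 3.77, 7.79, and 56.9 CPM on LN521 (log2 fold change 2.43, SE 0.47, edgeR adjusted p = 0.0312). The groups did not overlap, and LN521 replicate 3 came nearest to LN323. ALDH1A1, a retinoic acid synthesizing enzyme of the dorsal retina, stood at 4512, 2089, and 6624 CPM against 215, 1067, and 5771 CPM and did not pass (log2 fold change 1.46, SE 0.45, edgeR adjusted p = 0.429). TBX5 was the 1 called member of 29 eye field and retinal progenitor genes, whose median was 0.01. RAX (log2 fold change -0.27, SE 0.24) and PAX6 (-0.01, SE 0.24), factors that define the eye field, did not pass, each with overlapping groups. PRPH, peripherin, an intermediate filament of peripheral neurons, was called at 43.8, 51.3, and 21.7 CPM against 14.3, 9.23, and 8.89 CPM (log2 fold change 1.77, SE 0.26, edgeR adjusted p = 0.00289), but a gene on the opposite strand covers 71.5% of it.

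Of the 5 genes higher on LN521, OTX2, a homeobox factor of photoreceptor precursors and pigment epithelium, stood at 28.1, 25.0, and 10.4 CPM on LN323 and at 72.1, 47.1, and 25.7 CPM on LN521. LN521 was higher in each lane, although LN521 replicate 3 lay below LN323 replicate 1 (log2 fold change -1.18, SE 0.22, edgeR adjusted p = 0.0235). Without the lane block it did not pass (edgeR adjusted p = 0.78), nor in the 6 libraries alone (edgeR adjusted p = 0.192). OTX2 was the 1 called member of 17 photoreceptor fate genes. CRX, given above, differed by -1.38 (SE 0.33, edgeR adjusted p = 0.161), and NEUROD4, a bHLH factor of retinal neurons, by -1.98 (SE 0.44, edgeR adjusted p = 0.0789). NEUROD4 stood at 3.26, 7.36, and 2.92 CPM on LN323 and at 46.5, 8.93, and 9.70 CPM on LN521, without overlap but with LN521 replicate 1 far above the rest. DESeq2, which called 799 genes in all, called 0 of the list higher and 3 lower on LN323. Among the 3 were CRX (DESeq2 adjusted p = 0.0157) and NEUROD4 (DESeq2 adjusted p = 0.00333). The list's median was -0.65, with 7 members higher on LN521 and 1 higher on LN323 at an unadjusted p under 0.05. It was -0.26 without LN521 replicate 1 and -0.85 without LN323 replicate 2. Of the 17 members, 5 had a log2 fold change above 0. Among them were RORB (0.36, SE 0.22), ATOH7 (0.29, SE 0.44), and THRB (0.10, SE 0.24), which did not pass and had overlapping groups. Among 45 phototransduction genes none was called, 5 were higher on LN521 and 1 on LN323 at an unadjusted p under 0.05, the median was -0.54, and DESeq2 called 0 higher and 2 lower on LN323. RBP3, the retinoid carrier of the matrix between photoreceptors, stood at 5.83, 11.0, and 2.71 CPM on LN323 and at 40.8, 10.7, and 10.9 CPM on LN521 (log2 fold change -1.74, SE 0.43, edgeR adjusted p = 0.178).

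TYR, tyrosinase, the first enzyme of melanin synthesis, stood at 4.11, 3.87, and 2.45 CPM on LN323 and at 9.05, 26.5, and 16.1 CPM on LN521. Every LN521 library lay above every LN323 library (log2 fold change -2.27, SE 0.38, edgeR adjusted p = 0.00833). TYRP1, the related melanosome enzyme, stood at 20.5, 55.5, and 15.7 CPM against 21.7, 163, and 138 CPM and did not pass (log2 fold change -1.80, SE 0.41, edgeR adjusted p = 0.115). DCT, the third enzyme of that family, differed by -0.54 (SE 0.22), and PMEL, the melanosome fibril protein, by -0.62 (SE 0.36), each with overlapping groups. For TYRP1, DCT, and PMEL the LN521 library nearest to LN323, or below it, was replicate 1. Of 28 pigment genes, 12 were higher on LN521 and 1 was higher on LN323 at an unadjusted p under 0.05, TYR was the 1 called, and the median was -0.53. Without LN521 replicate 1 the median was -0.78 and 15 members were higher on LN521 after adjustment, 2 being higher on LN323, and without LN323 replicate 2 the median was -0.45. MITF, the factor that drives pigment genes, differed by -0.01 (SE 0.34).

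The other 3 genes rested on few counts or few libraries. ATP6V1B1, a proton pump subunit, stood at 1.80, 1.99, and 2.61 CPM on LN323 and at 45.1, 14.6, and 3.00 CPM on LN521 (log2 fold change -2.92, SE 0.59, edgeR adjusted p = 0.0425). The groups just failed to overlap, and 63.1% of its exon length is shared with other genes on the same strand. LBX1, a homeobox factor of dorsal spinal neurons and muscle precursors, had no count in any LN323 library and 5.35, 0.12, and 0 CPM on LN521. Against a floor of 3 counts over the LN323 group it was at least 70.2-fold higher on LN521, and at least 2.30-fold without LN521 replicate 1. SERPINB2, a serine protease inhibitor of stratified epithelia, was at 0.514, 8.96, and 1.28 CPM against 3.54, 29.6, and 5.48 CPM, higher on LN521 in each lane with overlapping groups (log2 fold change -2.27, SE 0.46, edgeR adjusted p = 0.0456).

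Several lists of other cell types had a median below 0 with all libraries but near or above 0 without LN521 replicate 1. That fit kept lane as a block, so leaving out LN521 replicate 1 also changed the weight of LN323 replicate 1. The surface ectoderm genes summed to 2416, 4448, and 3479 CPM on LN323 and to 4750, 5497, and 3519 CPM on LN521. LN521 replicate 1 was thus not the highest LN521 library there. At an unadjusted p under 0.05 with all libraries, 15 of 44 keratinocyte genes were higher on LN521 and 0 on LN323. These counts were 21 and 1 for surface ectoderm genes and 5 and 2 for pluripotency genes. They were 2 and 3 for retinal ganglion cell genes and 3 and 1 for hindbrain genes. Over all genes tested the shares were 2.16% and 2.31%. SERPINB2 was the 1 called keratinocyte gene, and the median of that list was -0.87 with all libraries and -0.00 without LN521 replicate 1. For 43 surface ectoderm genes the median went from -0.71 to 0.03, for 21 pluripotency genes from -1.11 to 0.04, for 40 retinal ganglion cell genes from -0.34 to 0.42, and for 22 hindbrain and spinal cord genes from -1.04 to 0.97. The last 2 medians were also above 0 without LN323 replicate 1 (0.21 and 0.29). The hindbrain gene HOXA5 shows this in its libraries, with 4.74, 42.3, and 35.8 CPM on LN323 and 130, 23.8, and 11.8 CPM on LN521. NEFL, the light neurofilament of projection neurons, stood at 200 CPM in LN521 replicate 1 and at 17.8 to 56.9 CPM in the other 5 libraries. POU5F1, a pluripotency factor, was at 15.2 CPM in that library and at most 2.46 CPM in the others. The median over all genes tested went from -0.05 to 0.05. The lens, mesenchyme, collagen, matrix, and pigment medians kept their sign with any 1 of the 6 libraries left out.

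The same contrast at day 22, in libraries that day 32 does not share, had the same sign for 45 of the 46 genes. The share of all genes tested with the same sign on both days was not counted. At day 22, 238 of 38609 genes were called (0.616%), and 19 of the 46 were among them, always in the same direction, which is 41.3% of the 46 and 7.98% of the 238. Without the lane block no gene passed at day 22. SRD5A2 stood at 37.8, 58.4, and 87.1 CPM on LN323 and at 0.281, 5.66, and 19.1 CPM on LN521 at day 22 (log2 fold change 4.04, SE 0.33, edgeR adjusted p = 3.09e-16). SOCS3 was at 146, 86.4, and 159 CPM against 51.2, 28.3, and 59.3 CPM (log2 fold change 1.51, SE 0.18, edgeR adjusted p = 2.63e-09), and OTX2 at 25.3, 8.93, and 18.9 CPM against 55.8, 34.3, and 36.3 CPM (log2 fold change -1.38, SE 0.23, edgeR adjusted p = 3.96e-05). In all 3 genes the groups did not overlap at day 22. Other members of the photoreceptor fate list were called higher on LN323 at day 22, opposite to OTX2. Among them were RORB (log2 fold change 1.39, SE 0.27, edgeR adjusted p = 0.000587) and THRB (0.98, SE 0.21, edgeR adjusted p = 0.00359). ATOH7 differed by 2.96 in that direction (SE 0.41, edgeR adjusted p = 4.53e-07). KCTD16, TBX5, PDGFRA, COL9A3, CDH11, PRPH, VIPR2, ATP6V1B1, and LBX1 were also among the 19.

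The crystallins were not. CRYAA stood at 3.20, 6.39, and 5.6 CPM against 0.0936, 2.95, and 3.47 CPM at day 22 (log2 fold change 1.70, SE 0.46, edgeR adjusted p = 0.0577), and CRYBB1 at 0.390, 3.98, and 2.01 CPM against 0.983, 1.23, and 0.341 CPM (log2 fold change 0.64, SE 0.62, edgeR adjusted p = 1). COL1A1 differed by 0.56 (SE 0.18, edgeR adjusted p = 0.203), with overlapping groups. The 41 genes higher on LN323 at day 32, which were chosen on that day, had a median of 0.64 at day 22, against -0.07 over all genes tested. A test of the change in the contrast between days called 9 of 42336 genes (0.0213%), of which SERPINB2 was the only 1 among the 46, and 1556 genes (3.68%) had an unadjusted p under 0.05. At day 2, when the induction medium was first given, 967 of 38650 genes were called (2.5%), and 5 of the 46 were among them. SOCS3 (log2 fold change 1.28) and DACT1 (2.54) had the day 32 direction there, whereas COL1A1 (-0.82), VIPR2 (-1.01), and LRP1 (-0.80) had the opposite one.

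**Figure D4:**
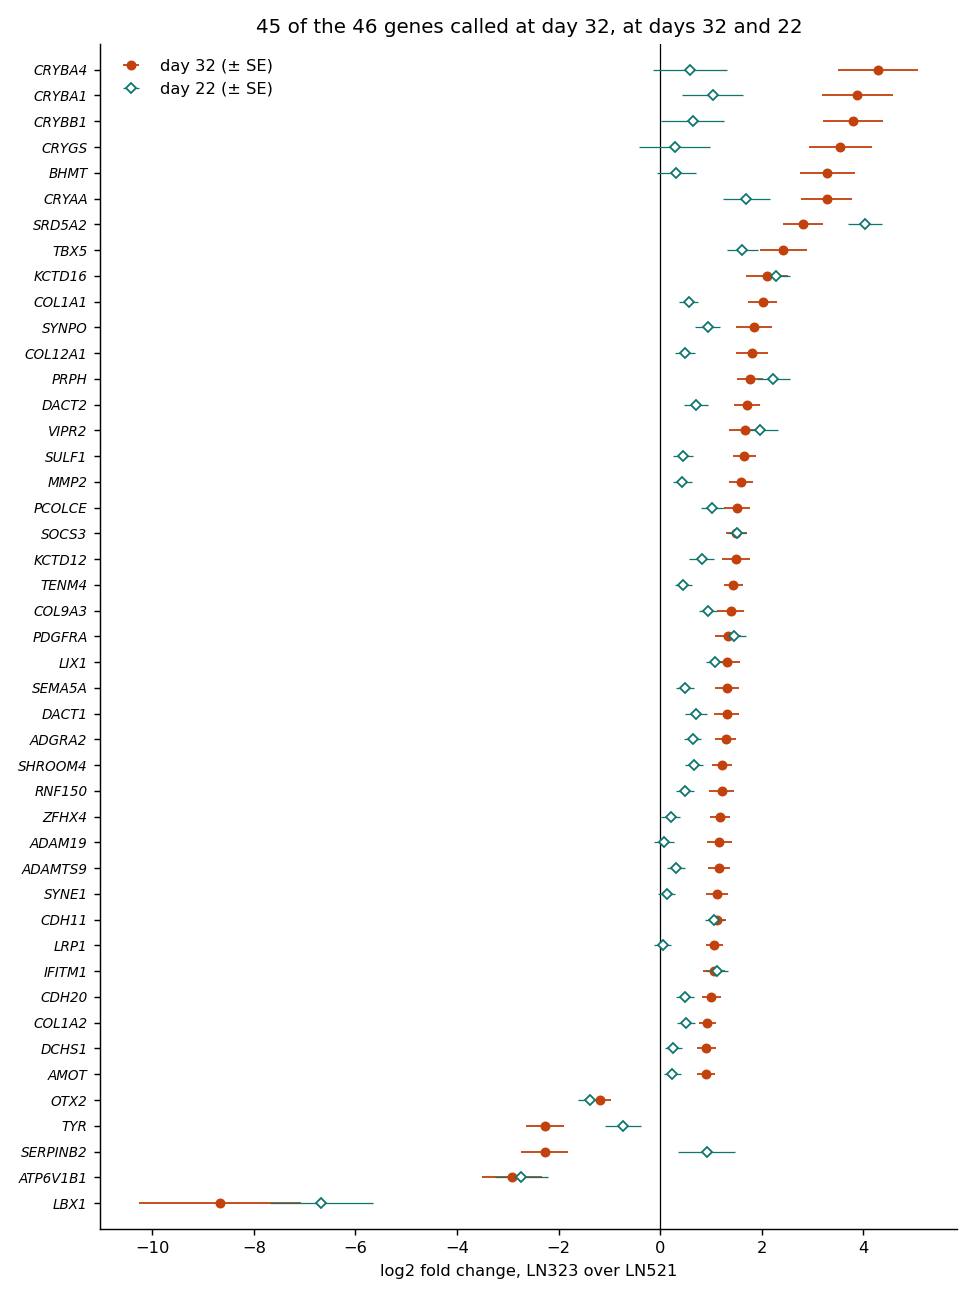
Log2 fold change of LN323 over LN521 for 45 of the 46 genes called at day 32, with filled circles for day 32, open diamonds for day 22, and bars for the standard error. The sign is the same on both days for all genes shown but SERPINB2, and the crystallins lie further from 0 at day 32. The fitted value of LBX1, which had no count on LN323 at day 32, depends on the prior count.

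LN523, which has the α5 chain of LN521 and the γ3 chain of LN323, is set beside the pair with the caution that these comparisons share libraries. LN523 against LN521 gave 24 called genes (0.0609%), and LN323 against LN523 gave none (0%), with 747 genes at an unadjusted p under 0.05 (1.9%). Both pairs were fitted here only in edgeR, so the lack of calls does not show that LN323 and LN523 are alike. The paper, which used DESeq2, reports differing genes for both pairs at day 32, among them CRX higher on LN523 than on LN323. Here CRX differed by -1.58 for LN323 over LN523 without passing (edgeR adjusted p = 0.499). The 24 held 16 of the 46 genes, each in the same direction. LN523 lay nearer LN323 on the log2 scale for 38 of the 46, which were chosen on LN323 and LN521, and nearer LN521 for 8. It was above LN521 for all 41 genes higher on LN323. The shares of all genes tested that lie this way were not counted. Because the genes were chosen for their distance between LN323 and LN521, these counts do not show that LN523 resembles LN323. The lens genes summed to 166, 62, and 188 CPM on LN523, and replicate 2 there lay below LN521 replicate 3 (111 CPM). SRD5A2 was at 116, 14.3, and 264 CPM on LN523, a log2 fold change of -0.16 for LN323 over LN523. OTX2 was at 102, 51.2, and 25.7 CPM, a log2 fold change of -1.40 for LN323 over LN523 and of 0.22 for LN523 over LN521. COL1A1 stood at 263, 771, and 215 CPM on LN523. Replicate 2 was the highest of the COL1A1 libraries on LN523 as on LN323.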

How the data were processed

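Total RNA of 27 samples was sequenced by the authors after removal of ribosomal RNA with a stranded kit, as pairs of 150 base reads. Per the labels and the study's methods, reads were trimmed with cutadapt, aligned to GRCh38 with STAR 2.5.2b, and counted per gene with featureCounts 1.5.1, after which genes for ribosomal RNA and mitochondrial genes were removed. The strand setting of the counting is not given in the sources used here. The authors deposited rounded gene counts for 44852 genes and TPM values made from them, which were used only in an alternative. Of the non-zero counts in the 6 libraries 68.4% were even. Symbols and exon overlaps came from GENCODE 44, which matched 43052 genes, and promoters from RefSeq.

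The 9 libraries of day 32 were fitted together in edgeR 4.0.16 (R 4.3.3) and scaled by TMM, with terms for matrix and lane, and genes needed more than 1 count over these libraries. LN523 libraries thus shared the estimate of the spread, and the common coefficient of biological variation was 44.4%. Two-sided quasi-likelihood tests were adjusted by the Benjamini-Hochberg method over all genes tested, with a threshold of 0.05. The standard error is the log2 fold change divided by the square root of F. Days 22 and 2 were fitted in the same way, and the change between days as an interaction over 18 libraries with lane within day as a block. The day 32 comparison of LN323 with LN521, in edgeR and in DESeq2, was tested on simulated counts with known changes, and the other steps were not.

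Genes were named by a written rule. These were the 20 highest and up to 10 lowest fold changes among called genes that reached a group mean of 1 CPM and had 1 sign over the 3 lanes, every called member of a list, the 4 members of lowest p and the 3 of highest mean level in each of 39 lists, and identity markers. Other called genes are named as members of the called set. The lists, with 1169 of 1178 symbols matched, and the comparison itself were chosen with earlier results of these data known, so a list is described by counts and medians without a test. Lanes were taken as a block because the study's model has lane as a covariate. Across 21425 genes, deviations from the group means of LN323 and LN521 libraries of the same lane correlated at -0.21, 0.0953, and 0.13, so the lane number did not pair these samples, whereas LN323 and LN523 libraries correlated at 0.514, 0.506, and 0.426. Alternatives were DESeq2 1.42.0, RLE normalization, other filters, other sets of libraries, no lane block, limma 3.58.1 on log2 TPM, and leaving out each library. Counting error was small beside the spread between replicates. The authors' sample table was not used. Results of some genes are not reported here.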

Additional observations from a re-analysis of the deposited data

Results flagged for a closer look

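The difference between LN323 and LN521 itself changed from day 22 to day 32 for 9 of 42336 genes (edgeR interaction test, Benjamini-Hochberg adjusted p under 0.05), with 1556 genes at an unadjusted p under 0.05. For 6 of them the contrast moved toward LN521. RBP3, the retinoid carrier of photoreceptors, changed by -4.27 on the log2 scale (SE 0.75, edgeR adjusted p = 0.00373), from 1.25, 3.65, and 0.786 CPM on LN323 against 0.0936, 0.0492, and 0.597 CPM on LN521 at day 22 to 5.83, 11.0, and 2.71 CPM against 40.8, 10.7, and 10.9 CPM at day 32. ATOH7, the factor of the first retinal neurons, changed by -2.72 (SE 0.50, edgeR adjusted p = 0.00812), and its day 22 libraries were at 1.64, 17.6, and 13.5 CPM on LN323 and 0.515, 1.18, and 1.42 CPM on LN521. At day 32 ATOH7 stood at 43.2, 68.5, and 43.2 CPM on LN323 and at 114, 9.05, and 50.5 CPM on LN521, a log2 fold change of 0.29. KRT17, a keratin of stratified epithelia, changed by -2.04 (edgeR adjusted p = 0.00133), and on both matrices it was higher at day 32, with 4.66 to 15.3 CPM at day 22 and 108 to 394 CPM at day 32. The other genes that moved toward LN521 were IGFBP3, an IGF binding protein (-1.81, edgeR adjusted p = 0.00326), SERPINB2 (-3.15, edgeR adjusted p = 0.0472), and CBLN2, a synapse organizer (-2.0, edgeR adjusted p = 0.0451).

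The contrast moved toward LN323 for 3 genes. CRYBB2, a β-crystallin, changed by 4.94 (SE 0.99, edgeR adjusted p = 0.0294). It did not exceed 1.21 CPM in any of these libraries at day 22, and at day 32 it stood at 1.60, 21.2, and 5.35 CPM on LN323 and at 0.0503, 0.210, and 1.59 CPM on LN521. PFKFB4, a regulator of glycolysis, changed by 1.79 (SE 0.35, edgeR adjusted p = 0.0217), from 45.9, 31.9, and 57.2 CPM against 89.0, 153, and 92.2 CPM to 50.6, 72.8, and 67.4 CPM against 19.2, 38.1, and 129 CPM. DBX1, a factor of spinal interneuron precursors, changed by 7.19 (edgeR adjusted p = 0.05, below the threshold before rounding), a fitted value that depends on the prior count because LN323 had no count at day 22. No gene passed this test without the lane block, and 476 passed in DESeq2.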

How the results depend on the processing

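The number of genes called at day 32 depended strongly on the processing. Against 46 with the fit reported, DESeq2 gave 799 (439 higher on LN323, or 54.9% against 89.1%; 43 of the 46 among them), the 6 libraries alone 26, filterByExpr 0 (1359 at an unadjusted p under 0.05), at least 10 counts in every library 0 (1200), and limma on log2 TPM 0 with either pseudocount (2148 and 2171). RLE normalization gave 49 and all 27 libraries 39. The cause of these differences was not tested. Leaving out 1 library gave 0 to 2143, with 0 without LN323 replicate 2 and 2143 without LN521 replicate 1. Of the 46, 40, 0, and 20 still passed without LN323 replicates 1, 2, and 3, and 45, 6, and 37 without LN521 replicates 1, 2, and 3, and none passed in all 6 of these fits. Every one of the 46 that was tested kept its sign in every alternative. These fits reuse libraries on which the 46 were chosen, so the kept sign is not independent support.

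Without the lane as a replicate block, 15 genes were called at day 32 (14 of the 46), 0 at day 22, 1476 at day 2, and 0 for the change between days, and the lane numbers did not pair LN323 with LN521 libraries. At day 22, 238 genes became 626 in DESeq2, 0 with filterByExpr, and 13 to 628 with a library left out. At day 2, 967 became 0 with filterByExpr and 124 to 3439 with a library left out. For the change between days, 9 became 476 in DESeq2, 0 with filterByExpr, and 2 to 264 with a library left out. Without LN521 replicate 1, 6 of the genes named by the rule that were not called passed with the other sign (other list members were not counted), and their log2 fold changes with 1 of the 9 libraries left out ran from -3.40 to 1.59 for HOXA5, -3.08 to 2.04 for HOXB3, -0.43 to 0.85 for DKK3, -2.12 to 1.23 for SSTR2, -0.36 to 0.56 for EPHB2, and -1.24 to 0.58 for CDH1.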

Other observations

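Genes of the BMP and TGF-β pathway were not called, with 6 of 37 higher and 1 lower on LN323 at an unadjusted p under 0.05, a median log2 fold change of 0.37, and 0 higher and 1 lower after adjustment in DESeq2. BMP4, a dorsal eye ligand, stood at 63.0, 61.1, and 82.4 CPM on LN323 and at 25.4, 43.9, and 48.7 CPM on LN521, with no overlap (log2 fold change 0.83, SE 0.22, edgeR adjusted p = 0.243). BMP2 stood at 9.14, 8.72, and 8.87 CPM against 32.8, 18.5, and 12.8 CPM, again with no overlap but in the other direction (log2 fold change -1.19, SE 0.31, edgeR adjusted p = 0.237). ID1, ID2, and ID3, which BMP signals induce, differed by 0.52, 0.74, and 0.48 without passing the test, and LN521 replicate 1 was the lowest library for all 3.

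Of the general programmes, cell cycle genes had a median of -0.06 over 38 members, glycolysis and hypoxia genes 0.07 over 35, cholesterol and lipid genes 0.04 over 32 with SRD5A2 the 1 called, stress and interferon genes -0.07 over 34, Notch genes 0.14 over 29, hedgehog genes 0.19 over 17, retinoid genes -0.03 over 19, and YAP and TEAD targets -0.05 over 24. CAV1, caveolin 1, stood at 14.3, 33.0, and 18.3 CPM on LN323 and at 54.8, 60.3, and 35.4 CPM on LN521, without overlap and just outside the threshold (log2 fold change -1.29, SE 0.27, edgeR adjusted p = 0.0506). Mucins and apical membrane genes had a median of -0.93 over 32 members with none called and 13 higher on LN521 at an unadjusted p under 0.05, -0.50 without LN521 replicate 1, and 3 higher on LN521 after adjustment in DESeq2.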
